A study of Mus musculus with 21 samples.

Results

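Heat shock protein genes encode molecular chaperones, and 10 of them were followed across the hearts of control and *Notch3*-/- mice. They were chosen by name, with earlier results of these data known. The inducible HSP70 genes *Hspa1a* and *Hspa1b*, the constitutive HSP70 gene *Hspa8*, the endoplasmic reticulum (ER) HSP70 gene *Hspa5*, the HSP90 genes *Hsp90aa1* and *Hsp90ab1*, the HSP40 gene *Dnajb1* and the small heat shock genes *Hspb1*, *Hspb7* and *Cryab* were all found among the 46517 Ensembl genes of the deposited counts. The RNA came from pieces of left ventricle, frozen at once after removal, from c57bl/6j mice 10 to 14 months old. There were 4 control mice, with both copies of *Notch3* intact (*Notch3*+/+), and 3 *Notch3*-/- mice (knockouts), in which the gene for the Notch3 receptor of vascular mural cells is disrupted. The sex of the mice is not given in the sources used here. Each mouse gave 3 technical libraries, which were added up, and the replicate is the mouse. Total counts were 3091461, 4638786, 4208205 and 3046326 for controls 1 to 4, compared with 3828763, 5167869 and 5086740 for knockouts 1 to 3.

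Chaperones of the HSP70 and HSP90 families hold and fold other proteins in cycles of ATP binding, and HSP40 proteins such as the product of *Dnajb1* bring clients to HSP70 and speed up its ATPase. When unfolded proteins accumulate in the cytosol, heat shock factor 1 binds heat shock elements, repeats of the unit GAA and its complement, and drives the inducible genes, whereas unfolded proteins in the ER act through a separate response with *Hspa5* (BiP) among its main targets. Small heat shock proteins bind unfolding clients without ATP, and heart muscle holds large amounts of them, αB-crystallin (*Cryab*) at the Z-discs among them.

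The targeted gene was examined first. *Notch3* had 174, 200, 245 and 185 counts for controls 1 to 4, compared with 22, 36 and 25 counts for knockouts 1 to 3, in accordance with the labels. All 12 cardiomyocyte markers were detected, and their summed level was 35047, 25644, 29372 and 33597 CPM (counts scaled to library depth with TMM factors) for controls 1 to 4, compared with 34140, 22186 and 24723 CPM for knockouts 1 to 3. *Notch3*-/- mice 1 and 2 stood apart from the other 5 mice by 20 hepatocyte markers, all of them detected, which summed to 7120 and 13913 CPM there, to 162 CPM in *Notch3*-/- mouse 3 and to 26.9 to 180 CPM in the control mice. The marker with the most counts in these mice was *Alb*, with 6240, 8913 and 354 counts in *Notch3*-/- mice 1 to 3 and 68, 385, 10 and 32 counts in control mice 1 to 4. Of the 18 markers that passed the expression filter, 9 were higher in all 3 *Notch3*-/- mice than in any control mouse, as were 4.16% of all tested genes. Relative to the mean of the 7 mice, their median log2 CPM was -0.95 in *Notch3*-/- mouse 3 and -3.20 to -1.04 in the control mice.

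Of the 10 heat shock protein genes, 9 passed the expression filter, and 0 of these passed the test between genotypes. When edgeR p values were adjusted over all 14324 tested genes, 0 of the 9 reached a false discovery rate (FDR) under 0.05 and a fold change of at least 1.5, and their smallest FDR was 0.479. In all, 1 gene was called, *Notch3* itself, or 0.00698% of those tested. With DESeq2 0 of 8 heat shock protein genes were called, where 3.43% of all genes were, and *Hspa1a* and *Hspa1b* had no adjusted p there. In edgeR without *Notch3*-/- mouse 3 it was 0 again, where 6.24% of all genes were called. At an unadjusted p under 0.05 in edgeR, 0 members were higher in *Notch3*-/- hearts and 1, *Hspb7*, was lower, beside 7.34% of all tested genes higher and 3.05% lower. For 0 members did the 3 *Notch3*-/- mice lie above all 4 control mice, as they did for 4.16% of tested genes, and for 0 did they lie below, as for 4.42%. By sign, 2 of the 9 were higher and 7 lower (median log2 fold change -0.13), and the median over all tested genes was 0.00. This tally depended on single mice and on whether library total was a covariate. It was 4 higher and 5 lower without control mouse 3 or without *Notch3*-/- mouse 3, and the median ran from -0.28 without *Notch3*-/- mouse 1 to -0.05 without *Notch3*-/- mouse 2. With library total as a covariate in limma-voom on the 21 libraries, added after the data were seen, 6 of 8 were higher and 2 lower (median 0.04). The same fit without the covariate gave 2 of 8 higher and 6 lower (median -0.12). In bulk tissue, fewer cells of a type and less RNA per cell cannot be told apart, and this holds for every difference given here.

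**Figure D1:**
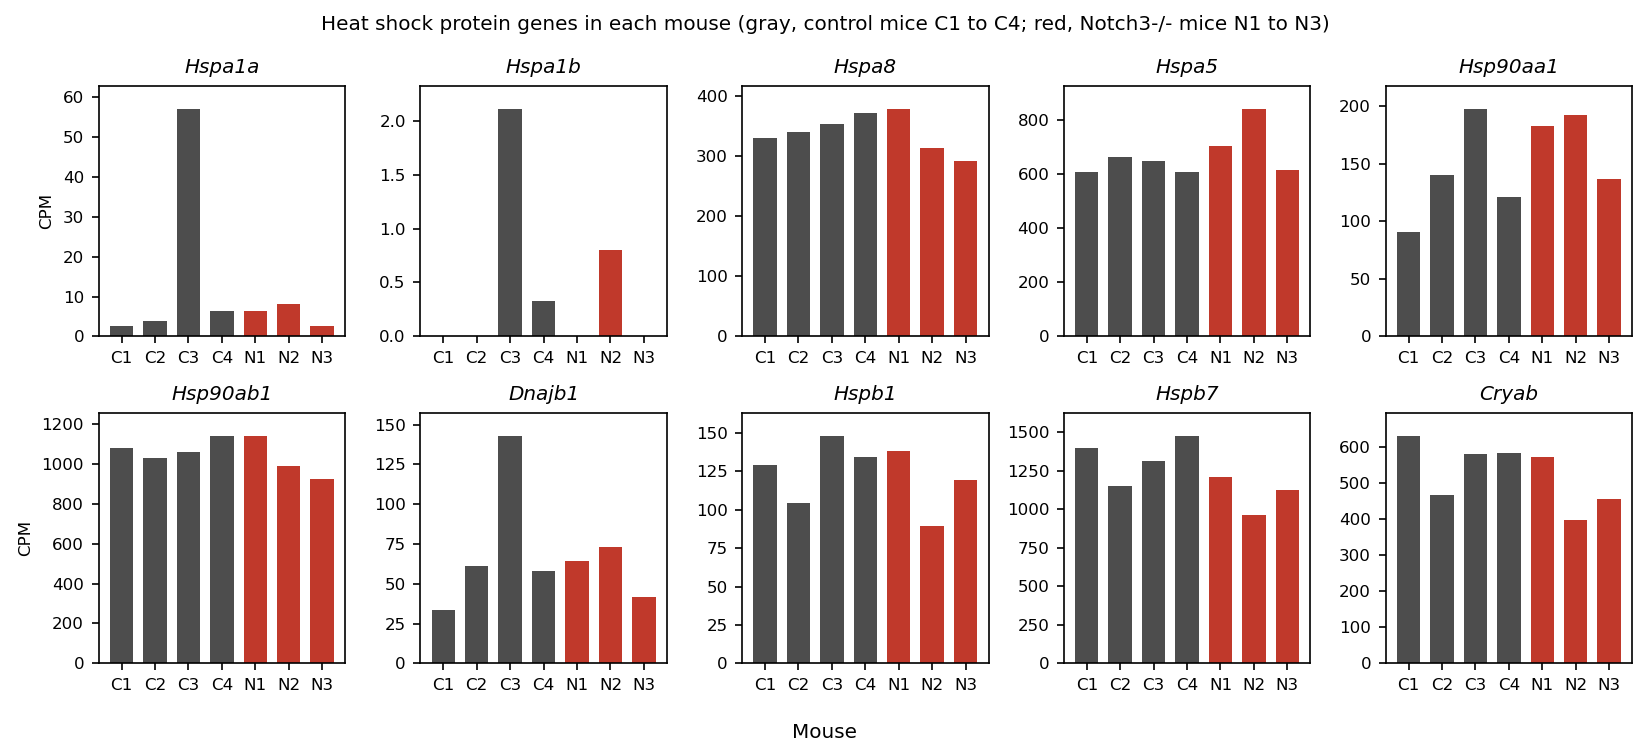
Level of each of the 10 heat shock protein genes in each mouse, in CPM on a linear axis from 0 with its own scale for each gene. *Hspa1a* stood at 57.1 CPM in control mouse 3 and between 2.62 and 8.04 CPM in the other 6 mice, *Dnajb1* was also highest in control mouse 3 and *Hspa5* in *Notch3*-/- mouse 2.

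The inducible pair separated 1 mouse from the rest rather than the genotypes. *Hspa1a* and *Hspa1b* encode nearly the same HSP70 protein, and both lie on the minus strand of chromosome 17 (GRCm38), *Hspa1b* at chr17:34956436-34959238 and *Hspa1a* at chr17:34969190-34972156, each as 1 exon. *Hspa1a* lies 2802338 bases and *Hspa1b* 2789584 bases from *Notch3*, on the same chromosome. Their promoters are shown because both genes had their highest level in control mouse 3, although *Hspa1b* had few counts and reads of the pair can be shared. Among the 10 genes, 6 had a promoter in the RefSeq set (GRCm38.p6, 250 bases before to 50 after the start), and the 250 bases before the start are printed 5′ to 3′ on the gene's strand. Capitals mark the paired heat shock element, searched as GAANNTTC or TTCNNGAA, a form that reads the same on both strands.
Hspa1a (chr17:34972157-34972406): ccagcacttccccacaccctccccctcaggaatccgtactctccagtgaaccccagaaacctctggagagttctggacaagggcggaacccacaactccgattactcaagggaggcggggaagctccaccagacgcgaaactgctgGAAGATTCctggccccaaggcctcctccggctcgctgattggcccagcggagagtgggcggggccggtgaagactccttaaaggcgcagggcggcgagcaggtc
Hspa1b (chr17:34959239-34959488): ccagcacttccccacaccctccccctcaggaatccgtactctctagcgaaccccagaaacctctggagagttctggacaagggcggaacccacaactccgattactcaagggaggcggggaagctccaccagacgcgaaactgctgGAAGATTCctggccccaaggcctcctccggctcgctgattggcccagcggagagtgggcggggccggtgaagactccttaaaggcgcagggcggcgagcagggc
The 2 stretches were identical at 247 of 250 bases (98.8%), and each held GAAGATTC starting 104 bases before the start. A paired element of this kind was present in 15.1% of all 32851 promoters, so the match is a description of the sequence and not a measured binding site.

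In the 4 control mice *Hspa1a* had 8, 19, 244 and 19 counts, and in the 3 *Notch3*-/- mice 24, 40 and 14 counts. These are 2.62, 3.98, 57.1 and 6.31 CPM for controls 1 to 4, compared with 6.44, 8.04 and 2.63 CPM for knockouts 1 to 3. Control mouse 3 stood 14.3 times above the median of the other control mice and 7.10 times above the next mouse of either genotype, while the remaining 6 mice overlapped. All 3 technical libraries of that mouse showed it, with 60, 70 and 114 counts, or 50.8, 56.3 and 63.9 CPM, and no library of another mouse exceeded 10.2 CPM. Of all tested genes, 11.6% were highest in control mouse 3, and 0.342% were at least 1.5 times above the next mouse there. *Hspa1a* and *Dnajb1* were in that small share, a measure chosen after their values were seen. The log2 fold change of *Hspa1a* was -1.61 (SE 1.00, edgeR FDR 0.605), and without control mouse 3 it turned to 0.42. An exact two-sided permutation test of mean log2 CPM over the 35 arrangements of the mice gave p = 0.857, where the smallest possible p is 0.0286.

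*Hspa1b* was close to the limit of detection. It had 0, 0, 9 and 1 counts for controls 1 to 4, compared with 0, 4 and 0 counts for knockouts 1 to 3, and did not pass the filter. Scaled by total counts alone, without TMM factors, a count of 0 still allows up to 0.970 CPM in control mouse 1, the shallowest of the mice without a count, and 0.590 CPM in *Notch3*-/- mouse 3, from a floor of 3 counts that covers counting error only. The highest value again came from control mouse 3. The counts of both genes are uncertain, because 58.6% of the distinct 51-base stretches of *Hspa1a*, the length of the reads, also occur in *Hspa1b*, and 62.0% of those of *Hspa1b* in *Hspa1a*. In addition, the plus-strand gene *Gm20481* shares 564 exon bases with *Hspa1a*, and whether reads were assigned by strand is not given in the sources used here. Added into 1 feature, the pair had 8, 19, 253 and 20 counts for the controls, compared with 24, 44 and 14 for the knockouts, with a log2 fold change of -1.59 (SE 1.01, edgeR FDR 0.615) that became 0.45 without control mouse 3.

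Of the other members, *Dnajb1* also stood highest in control mouse 3 by a wide margin, *Hsp90aa1* did so by 1.02 times the next mouse, and *Hspb1* did so at 148 CPM against 138 CPM in *Notch3*-/- mouse 1. *Dnajb1*, whose protein is the main HSP40 partner of inducible HSP70, had 103, 293, 612 and 175 counts for controls 1 to 4, compared with 240, 364 and 221 for knockouts 1 to 3. Control mouse 3 was 2.46 times above the median of the other controls, again in all its libraries (121, 181 and 137 CPM, against at most 72.7 CPM in any other library). The genotypes overlapped, and the log2 fold change of *Dnajb1* was -0.29 (SE 0.42, edgeR FDR 0.860), or 0.23 without control mouse 3. *Hsp90aa1*, the stress-inducible cytosolic HSP90, had 278, 666, 846 and 363 counts for the controls, compared with 681, 961 and 731 for the knockouts. Here control mouse 3, at 198 CPM, was level with *Notch3*-/- mice 1 and 2, at 183 and 193 CPM, and control mouse 1 was lowest at 91.0 CPM, so that the groups overlapped and the log2 fold change was 0.34 (SE 0.24, edgeR FDR 0.663). It ranged from 0.19 without control mouse 1 to 0.56 without control mouse 3. *Hsph1*, an HSP110 that exchanges the nucleotide of HSP70, gave 67.7, 102, 144 and 81.7 CPM for the controls, compared with 136, 159 and 119 CPM for the knockouts, with *Notch3*-/- mouse 2 highest (log2 fold change 0.51, SE 0.24, edgeR FDR 0.502). The SD of log2 CPM among libraries from 1 mouse was 0.16 for *Hsp90aa1* and 0.22 for *Dnajb1*, and between mouse means it was 0.42 and 0.67. The median was 0.43 within and 0.31 between mice over all tested genes, and 0.24 and 0.21 over those with a mean of at least 100 CPM. *Hspa8* (0.20 within, 0.14 between), *Hsp90ab1* (0.16, 0.11), *Hspb7* (0.25, 0.23) and *Cryab* (0.33, 0.25) also varied more within mice.

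**Figure D2:**
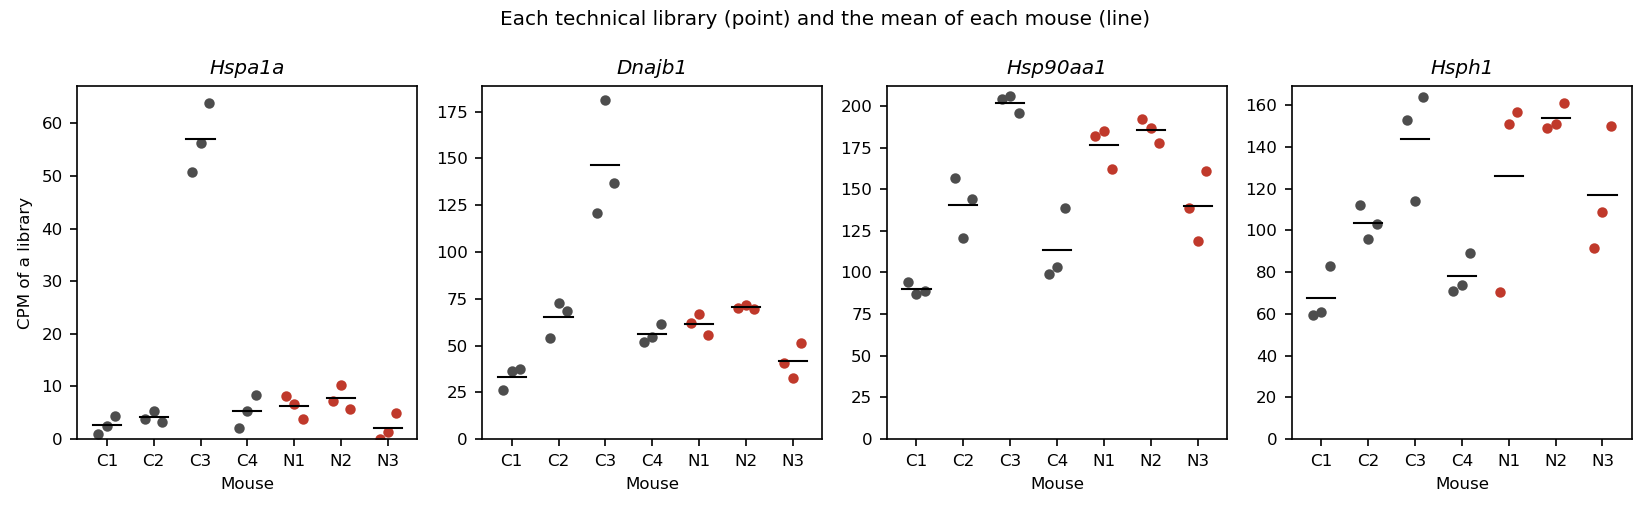
CPM of *Hspa1a*, *Dnajb1*, *Hsp90aa1* and *Hsph1* in each of the 21 technical libraries, scaled by library total (points, gray for control mice C1 to C4 and red for *Notch3*-/- mice N1 to N3; lines are means of 3 libraries). The 3 *Hspa1a* points of control mouse 3 lie at 50.8 to 63.9 CPM and all others at or below 10.2 CPM.

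Among 10895 genes with a mean of at least 10 CPM, the 10 whose log2 CPM over the 7 mice followed the mean of *Hspa1a* and *Hspa1b* most closely were *A930006L05Rik*, *Hax1*, *Mea1*, *Gm42670*, *Lsm1*, *Gm15851*, *Dnajb1*, *Prkar1a*, *Psma5* and *Paip2b*. Their Pearson r lay between 0.91 and 0.98 (n = 7) and, without control mouse 3, between 0.57 and 0.93 (n = 6). *Dnajb1*, at rank 7 with r = 0.93, was the only member of any chaperone list among them, and *Hsp90aa1* followed at rank 278 with r = 0.65. The other members had an r of 0.05 (*Hspb7*) to 0.28 (*Hspa8*). The points share 1 mouse far from the others, and these r values describe 7 mice only.

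Immediate early genes, which respond to handling and injury within minutes, were partly high in the same mouse. *Nr4a1* gave 46.8, 65.4, 189 and 107 CPM for controls 1 to 4, compared with 85.4, 79.4 and 28.0 CPM for knockouts 1 to 3, and *Jun* gave 163 CPM in control mouse 3 and 89.7 to 125 CPM elsewhere. *Btg2* was also highest there, at 98.7 CPM, whereas *Dusp1* was highest in control mouse 4 (244 CPM) and *Ier3* in control mouse 1 (63.5 CPM). Of the 13 tested genes of this list, 4 were highest in control mouse 3, beside 11.6% of all tested genes. The 15 genes of the list summed to 886 CPM in control mouse 3 and to 503 to 839 CPM in the other mice, and 6 of the 13 tested were higher and 7 lower in *Notch3*-/- hearts (median log2 fold change -0.01); 0 had an unadjusted p under 0.05 in edgeR. Their part in the levels of the inducible chaperones was not tested.

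The constitutive cytosolic chaperones were steady by comparison. *Hspa8*, which folds new proteins and uncoats clathrin vesicles, had 329, 339, 352 and 371 CPM for the controls, compared with 378, 313 and 291 CPM for the knockouts, a spread of 1.30 times from the lowest to the highest mouse. *Hsp90ab1*, the constitutive HSP90, had 1080, 1028, 1057 and 1140 CPM for the controls, compared with 1138, 988 and 922 CPM for the knockouts, a spread of 1.24 times. The genotypes overlapped for both. The log2 fold change was -0.06 for *Hspa8* (SE 0.12, edgeR FDR 0.897) and -0.06 for *Hsp90ab1* (SE 0.10, edgeR FDR 0.886). Processed pseudogenes share sequence with these genes, and 39.1% of the 51-base stretches of *Hspa8* and 47.3% of those of *Hsp90aa1* occur in transcripts of other genes, against 3.25% for *Hsp90ab1*, so the counts of the former are uncertain to that extent.

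*Hspa5* (BiP), the HSP70 of the ER lumen, was highest in *Notch3*-/- mouse 2. It had 1858, 3153, 2764 and 1824 counts for controls 1 to 4, compared with 2626, 4186 and 3273 for knockouts 1 to 3, or 608, 661, 647 and 606 CPM against 705, 841 and 616 CPM. *Notch3*-/- mice 1 and 2 lay above every control mouse and *Notch3*-/- mouse 3 among them. The log2 fold change was 0.22 (SE 0.12, edgeR FDR 0.571; exact permutation p = 0.114), and without *Notch3*-/- mouse 2 it was 0.07. Of its 51-base stretches 0% occur in another gene. The window before its RefSeq start holds the ER stress element, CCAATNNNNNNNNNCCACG or its reverse complement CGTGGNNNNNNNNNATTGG, shown in capitals with 5 bases on each side because other ER chaperone genes share it.
Hspa5 (chr2:34772020-34772048, plus strand, GRCm38.p6): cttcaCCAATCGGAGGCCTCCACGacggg
The match starts 65 bases before the RefSeq start, inside an exon of a GENCODE transcript that begins further upstream. The element was present in 6 of the 21 ER list genes with a promoter in the set (*Calr*, *Canx*, *Creld2*, *Dnajc3*, *Hsp90b1* and *Pdia6*) and in 0.119% of all 32851 promoters.

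Most other ER chaperones and genes of the unfolded protein response were also higher, in a list chosen with earlier results of these data known. Of the 24 genes in this list, 1 (*Atf4*) was lower in *Notch3*-/- hearts and 23 were counted as higher by the unrounded estimate, the median log2 fold change being 0.46, beside 0.00 and 49.6% higher over all tested genes. The 23 take in *Herpud1*, which at 0.00 (edgeR unadjusted p 1) showed no difference, and 22 were higher under RLE or total-count scaling. In edgeR 0 of them were called, the smallest FDR being 0.169, and 12 had an unadjusted p under 0.05, all higher, beside 7.34% of all tested genes higher and 3.05% lower. That count depended on the mice included: it was 4 without *Notch3*-/- mouse 2 (4.29% of all genes higher at this p), 8 without control mouse 4 (6.07%), 17 without *Notch3*-/- mouse 3 (11.6%), and 4 in control mice 3 and 4 with the 3 *Notch3*-/- mice (5.01%). *Eif2ak3*, which encodes the ER stress sensor kinase PERK, had 19, 39, 29 and 16 counts for the controls, compared with 77, 71 and 59 for the knockouts, without overlap (log2 fold change 1.21, SE 0.29, edgeR FDR 0.169). *Sdf2l1*, a partner of BiP, had 34, 42, 48 and 36 counts for the controls, compared with 86, 247 and 61 for the knockouts, and overlapped once scaled to depth (log2 fold change 1.42, SE 0.43, edgeR FDR 0.277). *Edem1*, which hands misfolded glycoproteins to ER-associated degradation, gave 11.5, 18.4, 8.42 and 15.9 CPM for the controls, compared with 32.7, 79.8 and 13.5 CPM for the knockouts (log2 fold change 1.67, SE 0.52, edgeR FDR 0.289). For all 3 the highest level came from *Notch3*-/- mouse 1 or 2.

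Across the list, 18 of 24 genes were highest in *Notch3*-/- mouse 2, as were 20.7% of all tested genes. Relative to the mean of the 7 mice, the list had a median log2 CPM of -0.21, -0.13, -0.18 and -0.26 for controls 1 to 4, compared with 0.17, 0.56 and -0.14 for knockouts 1 to 3, the value of *Notch3*-/- mouse 3 lying within the range of the controls. Gene by gene, 4 of the 24 (*Hyou1*, *Pdia4*, *Eif2ak3* and *Sel1l*) were higher in all 3 knockouts than in any control, as were 4.16% of all tested genes. Among the knockouts the list median, though not every gene, ran in the order of the hepatocyte markers, at 7120, 13913 and 162 CPM. The part of these markers in the ER chaperone levels was not tested. The number of list genes called was 9 in edgeR without *Notch3*-/- mouse 3, where 6.24% of all genes were called, and 4 with DESeq2, where 3.43% were, in both cases with *Edem1*, *Eif2ak3*, *Pdia4* and *Sdf2l1*, all higher in *Notch3*-/- hearts. Without *Notch3*-/- mouse 2, 20 of the 24 were higher and the median was 0.27.

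**Figure D3:**
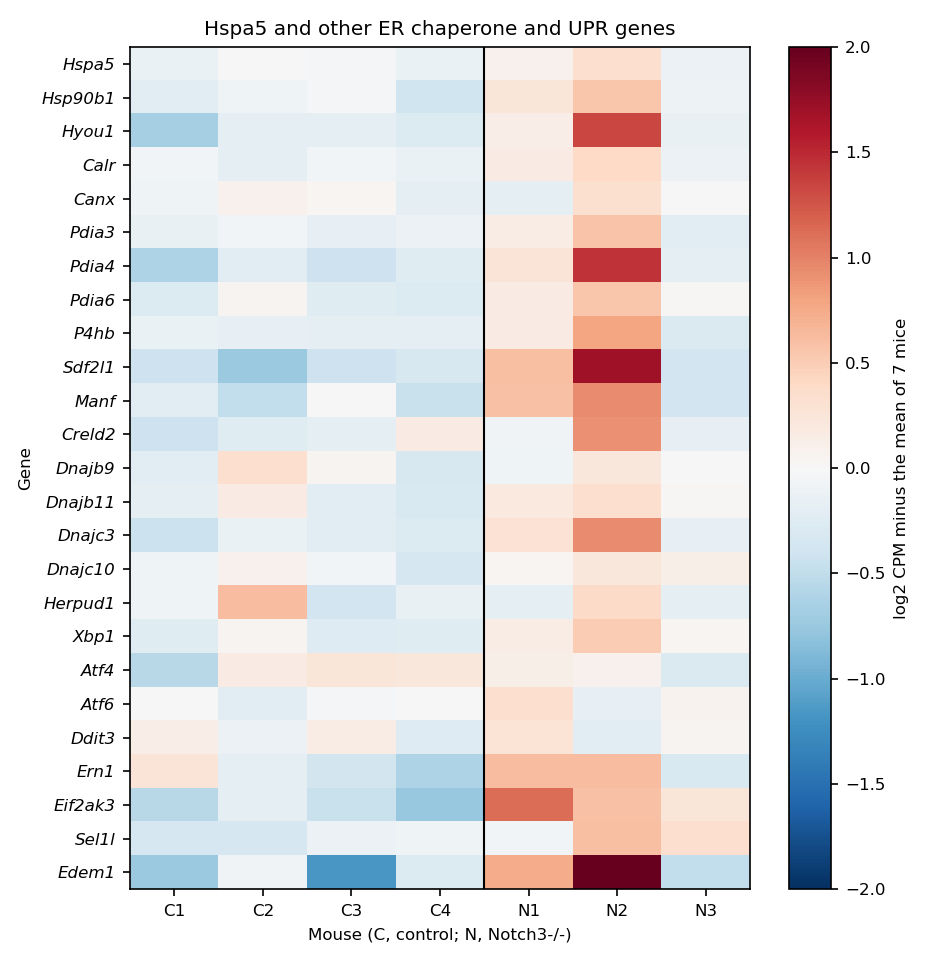
Log2 CPM of *Hspa5* and the 24 other ER chaperone and unfolded protein response (UPR) genes in each mouse, minus the mean of the 7 mice for that gene (color; red is higher). The column of *Notch3*-/- mouse 2 (N2) is the highest for *Hspa5* and for 18 of the 24 genes, and the list median of *Notch3*-/- mouse 3 (N3) lies within the range of the control mice C1 to C4.

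The 3 small heat shock members had negative log2 fold changes that did not pass the test and that were -0.04 to 0.02 once library total was a covariate, an alternative added after the data were seen. Library totals also differed between mice and genotypes, so this covariate can take up part of a genotype difference. *Hspb7*, a cardiac small heat shock protein that binds filamin C, had 1397, 1152, 1311 and 1477 CPM for the controls, compared with 1210, 962 and 1122 CPM for the knockouts. *Notch3*-/- mice 2 and 3 lay below every control mouse and *Notch3*-/- mouse 1 among them. Its log2 fold change was -0.26 (SE 0.11, unadjusted p 0.0479 and edgeR FDR 0.479; exact permutation p = 0.0857). *Cryab* had 630, 467, 580 and 582 CPM for the controls, compared with 571, 397 and 455 CPM for the knockouts (log2 fold change -0.23, SE 0.15, edgeR FDR 0.615). The groups overlapped for *Cryab* through *Notch3*-/- mouse 1. *Hspb1* (HSP27 in humans), an actin-binding member, had 129, 104, 148 and 134 CPM for the controls, compared with 138, 89.2 and 119 CPM for the knockouts (log2 fold change -0.13, SE 0.18, edgeR FDR 0.841). Of the other small heat shock genes, 4 of 7 were tested, 1 (*Hspb3*, 0.17) was higher and 3 were lower, with a median of -0.22 (-0.08 without *Notch3*-/- mouse 2, and -0.03 with that covariate in limma-voom) and 0 called in edgeR or DESeq2 (0 at an unadjusted p under 0.05 in edgeR), and *Hspb8*, *Hspb6* and *Hspb2* had log2 fold changes of -0.23, -0.24 and -0.22 (edgeR FDR 0.490, 0.596 and 0.738). *Hspb2* and *Cryab* lie head to head and share 252 exon bases, so reads there can count for either. The counts of *Hspb1* are uncertain too, since 49.9% of its 51-base stretches occur in other genes, chiefly the pseudogene *Hsp25-ps1*.

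A paired heat shock element was also found before *Hspb1*, whose promoter is shown for comparison with the inducible pair. The same form was present in 3 of the 5 other small heat shock genes with a promoter in the set (*Hspb3*, *Hspb6* and *Hspb8*), and in 15.1% of all 32851 promoters.
Hspb1 (chr5:135887669-135887918, plus strand, GRCm38.p6): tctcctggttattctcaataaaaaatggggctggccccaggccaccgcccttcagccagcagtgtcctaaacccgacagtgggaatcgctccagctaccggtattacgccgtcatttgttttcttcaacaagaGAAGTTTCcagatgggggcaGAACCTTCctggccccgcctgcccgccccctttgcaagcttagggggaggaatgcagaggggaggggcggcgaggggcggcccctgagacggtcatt
The 2 matches in capitals, GAAGTTTC and GAACCTTC, start 117 and 97 bases before the start. The windows of *Dnajb1* and *Hspb7* held 0 matches to the paired form, and *Hspa8*, *Hsp90aa1*, *Hsp90ab1* and *Cryab* had no entry. A longer heat shock element, of 3 units in a row, was also searched. It was present in 0 of the members with a promoter in the set, *Hspa1a* and *Hspa1b* included, and in 0.603% of all 32851 promoters. In the other chaperone lists it was found before *Hsph1*, *Dnajb6*, *Chordc1*, *Hspd1* and *Hspe1*.

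The levels of the abundant small heat shock genes moved with sequencing depth. Within the libraries of a mouse, log2 CPM differed by -0.51 for *Hspb7* and by -0.61 for *Cryab* with each doubling of library depth, whereas the median over 2420 tested genes with a mean of at least 100 CPM was 0.09. Among those 2420 genes 3.76% had a lower slope than *Hspb7* and 1.98% a lower slope than *Cryab*. In the shallowest library, from control mouse 4 with 464390 counts, *Hspb7* was at 2033 CPM, and in the deepest, from *Notch3*-/- mouse 3 with 2427783 counts, at 975 CPM. Slopes were -0.38 for *Hspa8*, -0.32 for *Hspb1* and -0.30 for *Hsp90ab1*, but -0.02 for *Hspa5*, 0.09 for *Dnajb1* and 0.20 for *Hsp90aa1*. For *Hspa1a*, with 0 to 17 counts in the libraries of 6 mice, the slope was 0.94. Cardiomyocyte markers had a median slope of -0.64, and all 12 were lower in *Notch3*-/- hearts in edgeR (median log2 fold change -0.24), with 0 called there or with DESeq2 and 0 at an unadjusted p under 0.05. Without *Notch3*-/- mouse 1 the median was -0.40 and 11 of the 12 had an unadjusted p under 0.05 in edgeR (3.6% of all genes lower at this p), and 4 did without control mouse 2 (3.15%). With the library total as a covariate in limma-voom on the 21 libraries, an alternative added after the data were seen, the log2 fold change went from -0.27 to -0.04 for *Hspb7* and from -0.24 to 0.01 for *Cryab*, and the median of the cardiomyocyte markers from -0.26 to 0.03. For *Hspa5* it was 0.22 with the covariate. Library totals ran from 464390 to 2134368 counts in control mice and from 979804 to 2427783 in *Notch3*-/- mice. The covariate thus takes in differences between mice and genotypes besides depth within a mouse, and their parts cannot be told apart here.

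**Figure D4:**
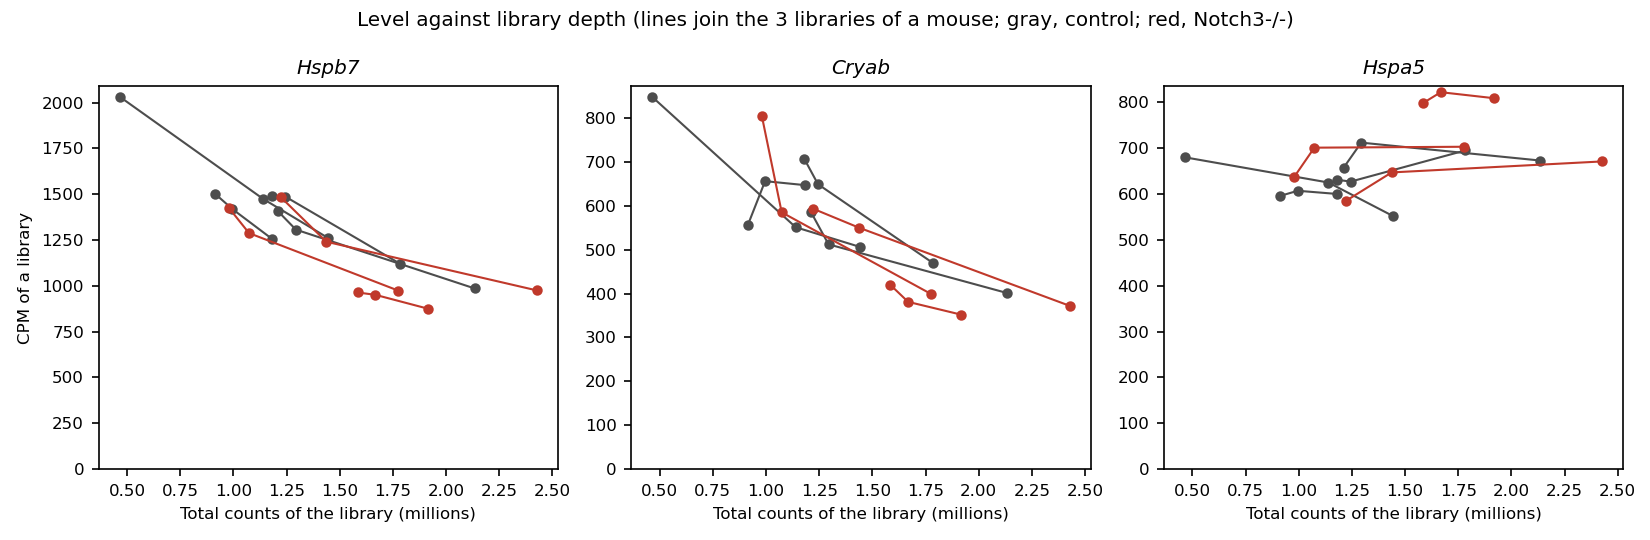
CPM of *Hspb7*, *Cryab* and *Hspa5* in each technical library against the total counts of that library, with lines joining the 3 libraries of a mouse (gray, control; red, *Notch3*-/-). *Hspb7* runs from 2033 CPM in the shallowest library to 975 CPM in the deepest, with a slope of -0.51 log2 units per doubling within mice, and *Hspa5* is flat, with a slope of -0.02.

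Per kilobase of exon *Hspb7* was the most abundant member in both genotypes. Its level was 482 ± 50.2 CPM per kilobase (SD, n = 4) for the controls, compared with 397 ± 45.3 (SD, n = 3) for the knockouts. *Cryab* followed in control mice at 382 ± 46.8 and *Hsp90ab1* at 359 ± 15.9 CPM per kilobase, and the ranges of these neighbours overlapped, as did those of *Hspb7* and *Cryab*. In *Notch3*-/- mice the order of *Cryab* (321 ± 59.9) and *Hsp90ab1* (339 ± 37.0) was exchanged within their spread. Below them stood *Hspa5* at 149 ± 6.54, *Hspb1* at 125 ± 17.7 and *Hspa8* at 80.9 ± 4.24 CPM per kilobase in control mice. *Hsp90aa1* at 34.9 ± 11.5 and *Dnajb1* at 23.1 ± 14.9 CPM per kilobase overlapped in control mice through control mouse 3. *Hspa1a* came to 5.90 ± 8.91 CPM per kilobase in control mice and 1.92 ± 0.936 in *Notch3*-/- mice, and *Hspb7* exceeded *Cryab* in all 7 mice.

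The remaining chaperone families were centred close to 0, and 0 genes of any of them were called in edgeR or DESeq2. Of the 9 other HSP70 and HSP110 genes tested, 4 were higher and 5 lower (median log2 fold change -0.01), with *Hsph1*, *Hspa12b* (0.22) and *Hspa4l* (0.21) nearest to the threshold. Of 28 other DnaJ genes 11 were higher and 17 lower (median -0.09). Among these *Dnajc5*, the vesicle protein CSPα, was above every control mouse, by little, at 7.40, 7.18 and 7.28 log2 CPM in knockouts, against at most 7.17 (log2 fold change 0.26, edgeR FDR 0.498), *Dnajc9*, a histone chaperone, had a log2 fold change of -0.43 (edgeR FDR 0.490) and *Dnajc14* one of 0.29 (edgeR FDR 0.544). *Dnaja2*, named after its values were seen, was below every control mouse, at 418, 406 and 449 CPM in knockouts against 468 to 501 CPM (log2 fold change -0.17, edgeR FDR 0.554). Of the 28 DnaJ genes, 1 lay above all control mice in every knockout and 1 below, as did 4.16% and 4.42% of all tested genes. Of 22 cochaperones of HSP70 and HSP90, 10 were higher and 12 lower (median 0.00), with *Bag4* at 0.65, *Bag1* at -0.35 and *Chordc1* at 0.28. The 15 chaperonin and mitochondrial chaperone genes, 7 higher and 8 lower, spanned -0.18 to 0.09, with *Cct7* at -0.15, *Lonp1* at -0.18 and *Clpp* at -0.13. For the families of this paragraph, 0 genes had an unadjusted p under 0.05 in edgeR.

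The list of heat shock factors had 0 called genes in edgeR or DESeq2, and 1 with an unadjusted p under 0.05 in edgeR, lower, beside 3.05% of all tested genes. *Hsf1*, the main activator of the heat shock response, gave 74.0, 100, 86.3 and 108 CPM for the controls, compared with 98.8, 81.0 and 109 CPM for the knockouts (log2 fold change 0.09, edgeR FDR 0.897), and *Hsf2* had a log2 fold change of -0.15 (edgeR FDR 0.853). *Hsbp1*, whose product binds the trimer domain of HSF1, was lower in every *Notch3*-/- mouse than in any control mouse, with 190, 163, 189 and 163 CPM for the controls, compared with 129, 131 and 147 CPM for the knockouts, as were 4.42% of all tested genes. Its log2 fold change was -0.35 (SE 0.12, edgeR unadjusted p 0.0174 and FDR 0.356; exact permutation p = 0.0286, the smallest possible), which did not pass the threshold over all genes. In the 4 tested genes of this list 2 were higher and 2 lower, with a median of -0.03.

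**Figure D5:**
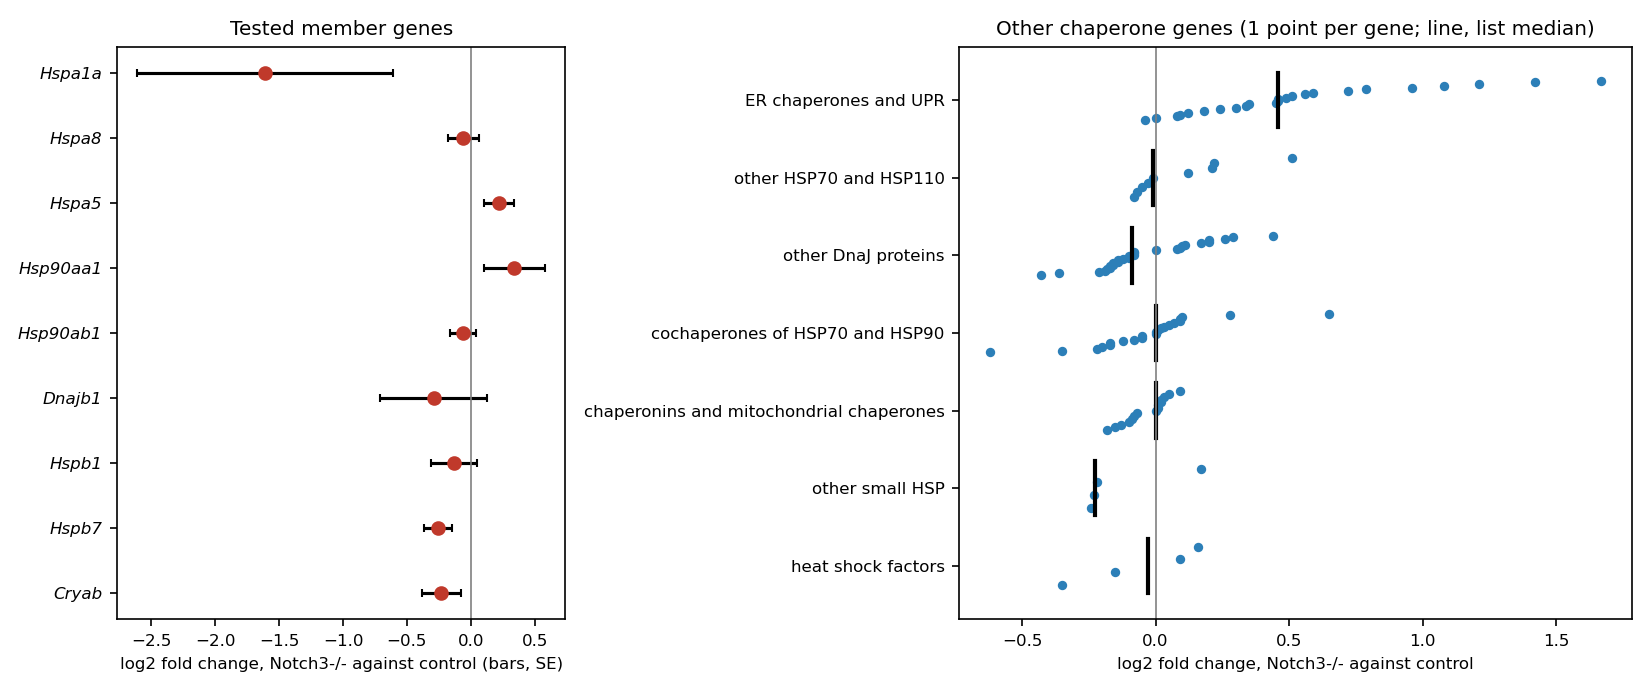
Log2 fold change of *Notch3*-/- against control mice for the 9 tested heat shock protein genes (left; points with SE bars from edgeR) and for the genes of 7 other chaperone lists (right; points are genes and black lines list medians). The ER chaperone and unfolded protein response (UPR) list has a median of 0.46, the other lists medians of -0.22 to 0.00.

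Markers of other cell types in the ventricle were measured beside these genes. The summed level of 6 endothelial markers (*Kdr* with the highest CPM) was 703 to 1061 CPM in control mice and 953 to 997 CPM in *Notch3*-/- mice, and that of 6 fibroblast markers (*Dcn*) was 1169 to 1395 CPM and 1296 to 1692 CPM. Of the 6 fibroblast markers, 5 were higher and 1 lower in *Notch3*-/- hearts (median log2 fold change 0.26), with 0 called in edgeR. At an unadjusted p under 0.05 in edgeR, 3 were higher and 1 lower, beside 7.34% and 3.05% of all tested genes. *Dcn* went against its list (log2 fold change -0.26) and was lower in every *Notch3*-/- mouse than in any control mouse. Smooth muscle markers (*Smtn*) summed to 505 to 706 CPM in control mice and 369 to 636 CPM in *Notch3*-/- mice, pericyte markers (*Rgs5*) to 1107 to 1227 CPM and 877 to 1069 CPM, and macrophage markers (*Csf1r*) to 239 to 283 CPM and 263 to 332 CPM. Of 4 tested smooth muscle markers 1 was higher and 3 lower (median log2 fold change -0.58), 2 of them at an unadjusted p under 0.05 in edgeR. Of 5 pericyte markers 1 was higher and 4 lower (median -0.15). Among these *Rgs5* (-0.34, edgeR FDR 0.249) was lower in every *Notch3*-/- mouse than in any control mouse. In edgeR 0 genes of these 2 lists were called. Erythroid markers (*Hbb-bs*) came to 349 to 533 CPM and 205 to 453 CPM, atrial markers (*Nppa*) to 35.6 to 165 CPM and 47.8 to 186 CPM, skeletal muscle markers (*Acta1*) to 161 to 850 CPM and 383 to 777 CPM, and adipocyte markers (*Cidec*) to 0 to 11 CPM and 0 to 19.9 CPM. Every marker of these lists had at least 1 count in some mouse. *Nppa* gave 181 of the 186 CPM of the atrial sum in *Notch3*-/- mouse 2 and 159 of the 165 CPM in control mouse 3, but 26.8 of 46.5 CPM in control mouse 1 and 27.7 of 35.6 CPM in control mouse 2, and of the 3 tested atrial markers 1 was higher and 2 were lower in *Notch3*-/- hearts (median log2 fold change -0.44). *Acta1* gave 848 of the 850 CPM of the skeletal muscle sum in control mouse 3 and 776 of the 777 CPM in *Notch3*-/- mouse 3.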

How the data were processed

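Per the labels, RNA of frozen left ventricle was reverse transcribed, amplified by PCR, cut with Tn5 and sequenced as 51-base single reads. The authors deposited whole-number counts per Ensembl gene for 21 libraries, not normalized. The submitters' processing notes name mm10 and CASAVA; the counting program and its treatment of strand and shared reads are not given in the sources used here. Counts of 3 technical libraries were summed per mouse, and 92 ERCC rows (34 counts in all) were left out. Symbols were found for 46005 of 46517 genes. Lengths and coordinates come from GENCODE vM21 (GRCm38).

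Genotypes were compared in R 4.3.3 with edgeR 4.0.16 (filterByExpr, TMM, quasi-likelihood test, genotype only, Benjamini-Hochberg adjustment). A gene was called at an FDR under 0.05 and a fold change of at least 1.5. Fold change SE was derived from the F statistic. CPM and log2 CPM (prior count 2) used TMM factors, except for single libraries, which were scaled by their totals. DESeq2 1.42.0 (without shrinkage), limma 3.58.1, other normalizations, filters and mouse subsets were alternatives. The pipeline was tested on simulated data.

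The members and lists were chosen with earlier results of these data known. Named are the 10 members, *Notch3*, from each other chaperone list the 3 genes with the smallest unadjusted p and any called gene, the 10 genes most like *Hspa1a* and *Hspa1b*, the 5 immediate early genes and the marker of each cell type with the highest mean CPM; other names were chosen after values were seen. Lists are described by counts and medians, without a test. *Hspa14* was not found in the counts. PCR reads without molecular identifiers are not independent, so floors cover counting error only.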

Additional observations from a re-analysis of the deposited data

Results flagged for a closer look

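Within the 4 control mice, 139 sets of values (CPM, and CPM on a log2 scale, for each named gene and marker list) were examined for a mouse far from the other 3, by its gap to the nearest value as a share of the whole range, against the 95% critical value of Dixon's ratio. The CPM scale was added after the log2 values had been seen, where *Hspa1a* did not exceed the critical value. Chance flags about 1 in 20 groups, and 9 of the 139 exceeded the value. In control mouse 3 these were *Hspa1a* at a ratio of 0.932 and *Hspa1b* at 0.842, both in CPM and not on the log2 scale, and *Gm42670*, at 0.972 in CPM and 0.966 on the log2 scale. The last was named for following the profile of the pair, which peaks in that mouse, so its ratios add nothing separate. *Hspb6* was low in control mouse 2, at 728 CPM against 910 to 945 CPM in the other control mice, with a ratio of 0.839 in CPM and 0.855 on the log2 scale. The summed fibroblast markers were high in control mouse 1, at 1395 CPM against 1169 to 1201 CPM, with ratios of 0.857 and 0.846. The summed adipocyte markers, at 11 CPM in control mouse 4 and 0 to 1.47 CPM in the other control mice, had a ratio of 0.866 in CPM. The 3 *Notch3*-/- mice were not examined in this way.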

How the results depend on the processing

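Among the heat shock protein genes that had an adjusted p, 0 were called under each alternative run, with a smallest FDR of 0.233 over edgeR, DESeq2 and limma fits. *Hspa1a*, *Hspa1b* and the pair had no adjusted p in DESeq2. Of 175 values of member log2 fold changes under alternatives, 164 kept their direction and 11 reversed. Leaving out control mouse 3 turned *Hspa1a* to 0.42, the pair counted together to 0.45 and *Dnajb1* to 0.23. Over the mice left out in turn, the range was -2.00 to 0.42 for *Hspa1a*, -2.05 to 0.45 for the pair, -0.53 to 0.23 for *Dnajb1*, -0.17 to 0.02 for *Hspa8*, -0.14 to 0.01 for *Hsp90ab1*, -0.28 to 0.01 for *Hspb1*, 0.07 to 0.33 for *Hspa5*, 0.19 to 0.56 for *Hsp90aa1*, -0.33 to -0.19 for *Hspb7* and -0.38 to -0.13 for *Cryab*. In the mice labelled k only (control mice 3 and 4 and the 3 *Notch3*-/- mice), *Hspa1a* was -2.46, the pair -2.45, *Dnajb1* -0.73 and *Hsp90aa1* 0.13. In limma-voom on 7 mice *Hspa1a* was -0.74 and the pair -0.72, and in technical library 1 alone *Dnajb1* was -0.10 and *Hspa5* 0.09. Leaving out *Notch3*-/- mouse 3 gave 0.02 for *Hspa8* and 0.01 for *Hsp90ab1*, and leaving out *Notch3*-/- mouse 2 gave 0.01 for *Hspb1*. *Hsp90ab1* was 0.01 in technical library 3 alone and *Hspb1* 0.05 in technical library 1 alone. With library total as a covariate, added after the data were seen, *Hspa8* was 0.08, *Hsp90ab1* 0.06, *Hspb1* 0.02 and *Cryab* 0.01. *Hspa1a* has no value in single technical libraries, in the fits of 21 libraries or with at least 10 counts in every mouse, since it did not pass those filters.

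The number of genes called over all genes was 1 in edgeR and 597 with DESeq2, 639 with every gene of at least 1 count, 0 in the mice labelled k only (edgeR), and 48, 39 and 77 in technical library 1, 2 and 3 alone. It ranged from 1 to 936 when each mouse was left out, the latter without *Notch3*-/- mouse 3. In limma-voom on 21 libraries with mouse as a random effect it was 65, with the library total as covariate 11, and with technical replicate number as a replicate block 62. That number labels libraries of a mouse and pairs no mice, and the block changed no call among the chaperone genes. Of all 115 tested chaperone genes, members included, 60 were higher and 55 lower, and 0 were called, but 4 were with DESeq2 and 0 to 9 when each mouse was left out. The cause of these changes was not tested. At 3046326 to 5167869 counts per mouse, *Hspa1b* did not pass the filter, and had a log2 fold change of -1.10 with every gene of at least 1 count and -1.14 with DESeq2.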
